A study of Homo sapiens with 16 samples.

Results

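The cytosolic ribosomal protein genes encode the proteins of the large and the small subunit of the ribosome outside the mitochondria. They were taken from a table of 60669 genes by symbol, as names that begin with RPL, RPS or RPLP followed by a number, plus RPSA, without names that mark a pseudogene, and this gave 87 genes. Of these, 54 belong to the large subunit and 33 to the small subunit. The rule uses names and no measured value, but the members and the gene lists were chosen with earlier results of these data known. The cells were MOLM-13, a human acute myeloid leukaemia line, grown for 4 days with both inhibitors together (the combination), with an inhibitor of EZH2 at 1 µM (EZH2i), with an inhibitor of PRMT5 at 1 µM (PRMT5i), or with 0.005% DMSO as the solvent control, with 4 replicates of each. The labels name neither compound and give no separate dose for the combination. They do not say whether replicates were separate cultures, so a p-value here covers the spread of these samples alone, which may be technical. All 16 samples come from the same line.

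Ribosomal proteins are made in near equal amounts and assembled with ribosomal RNA in the nucleolus, and most of their genes are transcribed from strong promoters in every growing cell. Their mRNAs begin with a stretch of C and T bases, the terminal oligopyrimidine or TOP motif, through which mTOR signalling and LARP1 control their translation and stability as a group. EZH2 is the enzyme that places repressive methyl marks on histone H3, and PRMT5 is an arginine methyltransferase whose substrates include histones, spliceosomal Sm proteins and the ribosomal protein RPS10. Loss of a copy of a single ribosomal protein gene, such as RPS19 in Diamond-Blackfan anaemia or RPS14 in 5q- syndrome, impairs blood formation.

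The starts of the mRNAs were examined for such a stretch, at annotated starts that were not measured in these cells. RefSeq (GRCh38.p14) gave a promoter window for 66 of the 82 protein-coding members that passed the filter on low counts. In the 30 bases from 10 before to 20 after the annotated start, an unbroken run of at least 7 C or T bases on the gene's own strand stood at 73.2% of the 82 starts of these members, against 19.3% of all 35116 starts in the table. The hexamer CGGAAG, a match to the core of sites bound by ETS-family factors such as GABPA, stood on either strand within 300 bases around 58.5% of the members' starts and 19.5% of all starts, and TATAAA around 7.32% and 11.5%. The windows of 10 members are shown to set members among the lowest fold changes with the combination beside members among the highest and beside 3 members of paralog pairs, 5′ to 3′, with the run in capitals.
The first 4 belong to members among the lowest against DMSO.
RPS29, chr14:49598691-49598720, minus strand: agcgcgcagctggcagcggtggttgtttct
RPS27, chr1:153990752-153990781, plus strand: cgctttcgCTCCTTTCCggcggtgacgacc
RPL31, chr2:101002279-101002308, plus strand: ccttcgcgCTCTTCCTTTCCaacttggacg
RPS6, chr9:19380217-19380246, minus strand: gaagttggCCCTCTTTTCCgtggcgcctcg
The next 3 belong to members among the highest against DMSO.
RPS16, chr19:39435930-39435959, minus strand: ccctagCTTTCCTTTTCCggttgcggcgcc
RPL28, chr19:55385922-55385951, plus strand: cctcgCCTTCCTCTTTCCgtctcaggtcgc
RPLP1, chr15:69452808-69452837, plus strand: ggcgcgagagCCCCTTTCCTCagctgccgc
The last 3 belong to paralog pairs.
RPL39, chrX:119791611-119791640, minus strand: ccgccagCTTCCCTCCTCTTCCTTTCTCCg
RPL7L1, chr6:42879606-42879635, plus strand: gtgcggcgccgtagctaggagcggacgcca
RPS27L, chr15:63157458-63157487, minus strand: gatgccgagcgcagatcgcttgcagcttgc
RPS27, RPL31 and RPS6 at the low end, RPS16, RPL28 and RPLP1 at the high end and RPL39 all hold a run, and RPS29, RPL7L1 and RPS27L hold none of that length. RPS7 at the low end, RPS21 at the high end, RPL22, RPL26 and the paralog RPL22L1, not shown, also hold a run. RPL3, among the highest and not shown, holds none of that length, with a longest run of 5 bases. Among members with a window, 29 of the 56 with a run were lower with the combination than with DMSO (51.8%, median log2 fold change −0.29), as were 7 of the 10 without one (70.0%, median −0.35), where 18.5% of all genes tested were lower. No test was made between these sets.

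Library totals were 31.1 to 52.9, in units of 1e+06 expected counts, the estimated fragment counts per gene that the authors made with RSEM. Levels are given as CPM, counts per 1e+06 on library sizes scaled by TMM, a factor per library that was 1.03 to 1.07 with the combination and 0.861 to 1.03 with DMSO. The DMSO libraries were the least alike: the median coefficient of variation of the members was 7.96% with the combination, 8.09% with EZH2i, 5.12% with PRMT5i and 15.4% with DMSO, and over all genes the DMSO value was 19.7%. Over genes above 100 CPM, that median was 5.37% with the combination, 10.2% with EZH2i, 5.27% with PRMT5i and 15.3% with DMSO. DMSO replicate 1 was the highest DMSO library for 63 of the 84 members tested, and DMSO replicate 2 the lowest for 60. DMSO replicate 1 also had 1.70% of its counts on mitochondrially encoded genes, against 0.213% to 0.518% in the other DMSO libraries. Over all genes, log2 levels relative to the mean library correlated with transcript GC content at −0.28 in DMSO replicate 1 and 0.41 in DMSO replicate 2. Such values were not limited to DMSO. EZH2i replicate 1 was at 0.44, EZH2i replicate 3 at 0.27, combination replicate 2 at −0.26 and EZH2i replicate 4 at −0.22. The part of these library differences in the results was not tested. Results against DMSO are given with and without DMSO replicates 1 and 2. For the labelled cell type, all 8 myeloid markers were present, including CD33, MPO and SPI1, at a summed 2739 to 2874 CPM with the combination, 2054 to 2344 with EZH2i, 3053 to 3314 with PRMT5i and 2086 to 2846 with DMSO, while the 3 T cell markers summed to 2.83 to 4.46 CPM with the combination, 6.66 to 7.67 with EZH2i, 1.80 to 2.06 with PRMT5i and 3.55 to 5.52 with DMSO. Of these 3, CD2 was at 0 counts in all 16 libraries, and CD3D had counts in every library and was higher with EZH2i (0.77) and lower with PRMT5i (−1.11) against DMSO. The 4 epithelial and fibroblast markers summed to 4.07 to 6.33 CPM with the combination, 3.27 to 6.94 with EZH2i, 3.28 to 3.58 with PRMT5i and 1.70 to 2.96 with DMSO, and the part of either list in the results was not tested.

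**Figure D1:**
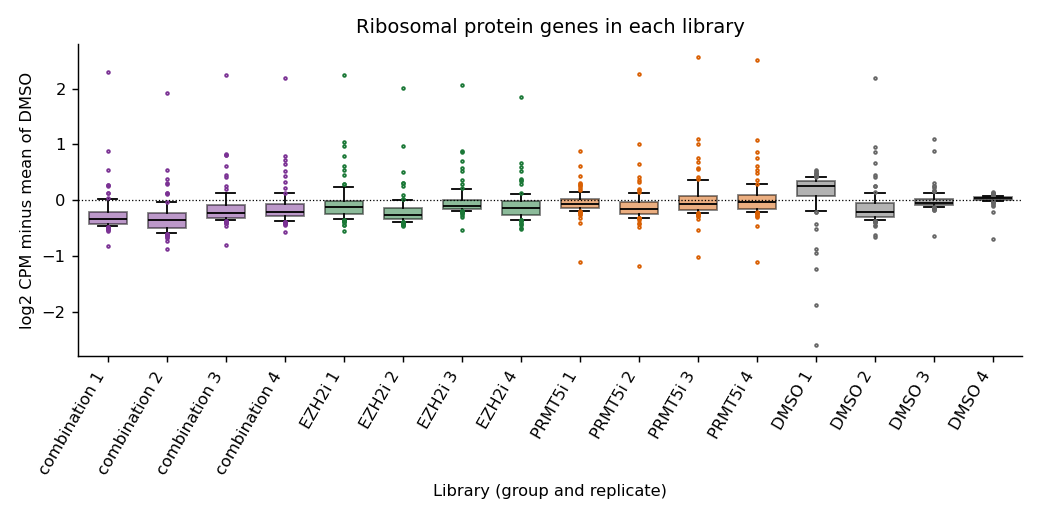
Log2 CPM of the 84 tested ribosomal protein genes in each of the 16 libraries, as the difference from the gene's mean over the DMSO libraries. Boxes span the quartiles with the median as a line, whiskers reach the 10th and 90th percentiles, and points are genes beyond them; the medians of the combination libraries lie between −0.35 and −0.20, and those of the DMSO libraries between −0.21 and 0.25.

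The members together took 10.4%, 10.5%, 11.4% and 11.5% of all counts with the combination. The EZH2i libraries gave them 11.96%, 10.8%, 12.4% and 11.8%, the PRMT5i libraries 11.6%, 11.3%, 12.2% and 12.3%, and the DMSO libraries 12.4%, 11.5%, 11.7% and 12.2%. The combination libraries lay at the low end, averaging 10.9% ± 0.566 against 11.95% ± 0.415 with DMSO (SD, n = 4 each), and the highest combination library and the lowest DMSO library met at 11.5%. The ratio of large-subunit to small-subunit counts averaged 1.61 with the combination, 1.62 with EZH2i, 1.59 with PRMT5i and 1.60 with DMSO. That ratio covered 1.55 to 1.67 within the DMSO group alone, a span that holds every library of the other groups. In bulk RNA, fewer cells of a kind and less RNA per cell cannot be told apart, and a CPM is a share of the measured RNA, so a drop in total RNA per cell would not appear in it.

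With the combination, the ribosomal protein genes were lower as a broad group and by a small amount. Of the 84 tested, 48 were lower than with DMSO and none was higher (edgeR's quasi-likelihood test, adjusted p under 0.05 over 16555 genes), with a median log2 fold change of −0.32, or 0.799 times the DMSO level. At an unadjusted p under 0.05, 60 were lower and 0 higher, DESeq2 called 51 lower and 0 higher, and limma voom with library weights 62 lower and 3 higher. Shares of all genes for those other counts are not given here. By edgeR at the adjusted p, 18.5% of all genes tested were lower and 17.6% higher, with a median of 0.00. Of the members, 57.1% were lower. The large subunit had 30 of 52 lower (median −0.31) and the small subunit 18 of 32 (median −0.33). Without the entries annotated as pseudogenes the count was 47 of 82. In 28 members all 4 combination libraries lay below all 4 DMSO libraries, which is 33.3% of them against 16.4% of all genes tested.

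**Figure D2:**
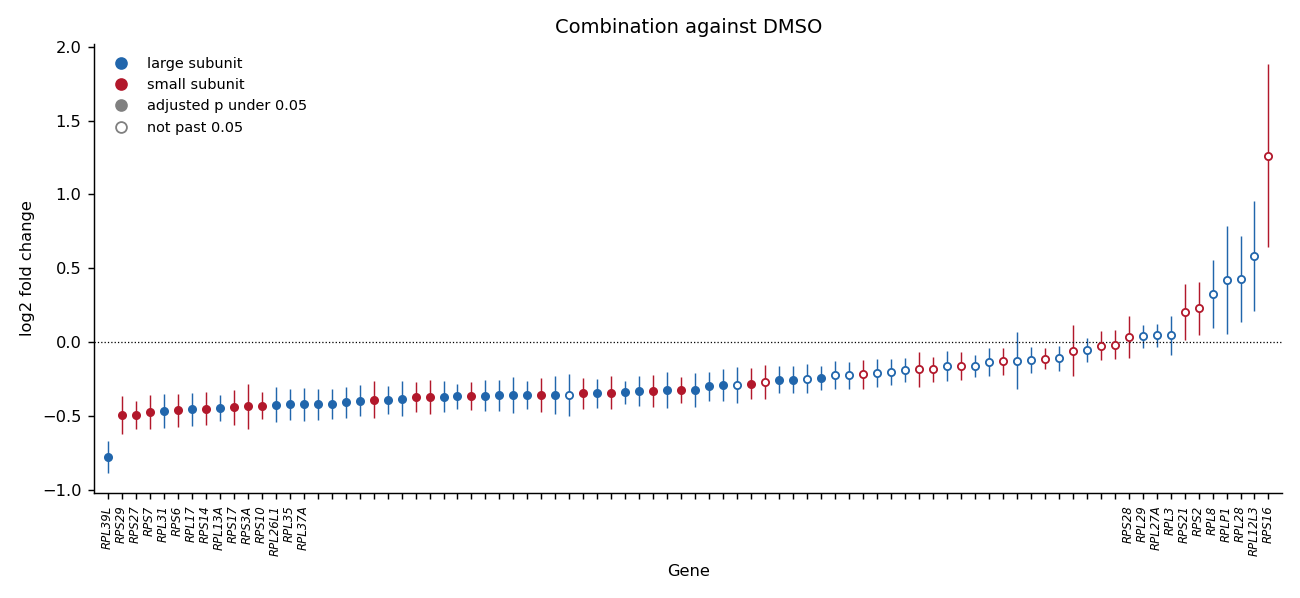
Log2 fold change of each of the 84 tested members with the combination against DMSO, sorted from lowest to highest, with bars of 1 standard error and names at both ends. Blue marks the large and red the small subunit, and filled points passed an adjusted p of 0.05; the 48 filled points all lie below 0, and the wide bars at the right belong to members such as RPS16 that varied most between DMSO libraries.

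RPS6, the small-subunit protein that S6 kinases phosphorylate downstream of mTOR (ENSG00000137154.12, chromosome 9, 19375715 to 19380254, minus strand, GRCh38), had 2502, 2462, 2595 and 2665 CPM with the combination, against 4502, 2755, 3246 and 3565 CPM with DMSO. Its 4 combination libraries lay close together and below every DMSO library, of which replicate 1 was far the highest. RPS6 fell by 0.46 in log2 units, with a standard error (SE) of 0.11 and an adjusted p of 0.00418. RPS27, a zinc-finger protein of the small subunit (ENSG00000177954.11, chromosome 1, 153990755 to 153992155, plus strand), had 884, 847, 962 and 980.5 CPM with the combination, against 1554, 1079, 1234 and 1311 CPM with DMSO. The groups did not overlap, and RPS27 fell by 0.49 (SE 0.10, adjusted p = 8.27e-04). RPS29, a small-subunit protein mutated in some families with Diamond-Blackfan anaemia, had 519, 414, 535 and 514 CPM with the combination, against 867, 524, 699 and 710.0 CPM with DMSO. Here combination replicate 3 was above DMSO replicate 2, so the groups overlapped, and RPS29 fell by 0.50 (SE 0.13, adjusted p = 0.00635). RPS7, whose protein can also bind MDM2, had 833, 723, 855 and 849 CPM with the combination, against 1445, 865, 1089.5 and 1129.6 CPM with DMSO. All 4 combination libraries were below all 4 DMSO libraries, combination replicate 2 stood lowest, and the log2 fold change was −0.48 (SE 0.12).

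On the large subunit, RPL31, a protein near the exit of the nascent chain tunnel (ENSG00000071082.10, chromosome 2, 101001715 to 101024032, plus strand), had 742, 732, 798 and 812 CPM with the combination, against 1369, 827, 1007 and 1068 CPM with DMSO. The groups did not overlap, and RPL31 fell by 0.47 (SE 0.12, adjusted p = 0.00461). RPL13A, which also takes part in translational silencing of inflammatory mRNAs in monocytes (ENSG00000142541.16, chromosome 19, 49487554 to 49492308, plus strand), had 3741, 3315, 4059 and 3999 CPM with the combination, against 5865, 4440.4, 5059.6 and 5265 CPM with DMSO. Its combination libraries were all below its DMSO libraries, and RPL13A fell by 0.45 (SE 0.09, adjusted p = 8.25e-04). RPLP0, the base of the stalk that recruits translation factors, had 2506, 2519.8, 2982 and 2960.3 CPM with the combination, against 4322, 3244, 3306 and 3566 CPM with DMSO. These did not overlap either, with a log2 fold change of −0.40 (SE 0.11, adjusted p = 0.00807). RPL17 followed at −0.46, RPL6 at −0.42 and RPL36 at −0.42, all past the threshold. RPL17 shares 24.8% of its exon bases with the read-through gene RPL17-C18orf32, so reads between them could be divided.

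Of the 48, 16 members stayed lower past the threshold in all 30 settings tried, which include other tools, other scalings and leaving out any 1 library. They were RPL6, RPL7L1, RPL13A, RPL17, RPL31, RPL36, RPL36A, RPL39L, the second RPL41 entry, RPLP0, RPS6, RPS7, RPS10, RPS14, RPS27 and RPS29. How large a share of all genes stayed lower in all 30 settings is not given here. Leaving out DMSO replicate 1 gave 39 lower members, DMSO replicate 2 gave 61 lower and 3 higher, and combination replicate 2 gave 30 lower. Leaving out both DMSO replicates 1 and 2, a setting chosen after seeing the data, gave 60 lower and 1 higher. The count of lower members was 27 with total counts in place of TMM, where the median of the members was −0.18 and that of all genes 0.13, and 19 when only these 2 groups entered the fit. With an offset per library for GC content, 54 were lower and 1 higher, and 45 of the 48 were among them. Shares of all genes called in these settings are not set beside these counts. A change in calls over all genes may be part of the counts.

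The members with disease roles or functions outside the ribosome did not move alike. RPS14 had 928, 899, 1049 and 1055 CPM with the combination, against 1689, 1109.7, 1219 and 1351 CPM with DMSO. All combination libraries were below all DMSO libraries, and RPS14 fell by 0.45 (SE 0.11, adjusted p = 0.00526). RPS19 averaged 1526 ± 157 CPM with the combination and 1919 ± 274 CPM with DMSO (SD, n = 4 each), with groups that overlapped. RPS19 fell by 0.33 (adjusted p = 0.0275), which did not pass when DMSO replicate 1 (−0.27), DMSO replicate 3 (−0.32), combination replicate 2 (−0.26) or combination replicate 4 (−0.34) was left out. RPS10, which PRMT5 methylates, averaged 1271 ± 78.6 CPM with the combination and 1714 ± 231 CPM with DMSO without overlap and fell by 0.43 (adjusted p = 0.00139). RPS10 shares 39.4% of its exon bases with the read-through gene RPS10-NUDT3. RPL23, another protein that can bind MDM2, fell by 0.33 (adjusted p = 0.0157) but did not pass when combination replicate 1 was left out (−0.30).

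RPL5 and RPL11, which bind MDM2 together with the 5S ribosomal RNA when ribosome assembly is disturbed, did not pass the threshold. RPL5 had 1409, 1568, 1595 and 1724 CPM with the combination, against 1929, 1645, 1769 and 1897 CPM with DMSO. Those groups overlapped, and the log2 fold change was −0.20 (95% interval −0.39 to −0.02, adjusted p = 0.0845). RPL11 had 1074, 1019, 1125 and 1122 CPM with the combination, against 1496, 1026, 1229.6 and 1321 CPM with DMSO. DMSO replicate 2 was as low as the combination libraries, and the log2 fold change was −0.22 (95% interval −0.43 to −0.02, adjusted p = 0.0786). RPSA, the laminin receptor precursor protein of the small subunit, was at −0.22, RPS27A, made as a fusion with ubiquitin, at −0.18, RPS4X at −0.13 and RPS3, which also acts in DNA repair, at −0.02. RPLP2, the partner of RPLP1 on the stalk, was at −0.12 (adjusted p = 0.291). None of these members passed, with adjusted p from 0.0916 for RPSA to 0.879 for RPS3.

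Of the 36 members that did not pass, 11 had an estimate above 0, and those with the highest values varied most among the DMSO libraries. RPS16, a protein of the small-subunit head (ENSG00000105193.8, chromosome 19, 39433207 to 39435948, minus strand), had 415, 319, 398 and 381 CPM with the combination, 398, 339, 350.5 and 304 CPM with EZH2i, 156, 405, 497 and 479 CPM with PRMT5i, against 13.8, 385, 180.1 and 51.9 CPM with DMSO. Its DMSO libraries differed by up to 4.80 on the log2 scale, with replicate 1 lowest and replicate 2 as high as the combination libraries, while the combination libraries differed by 0.38. The log2 fold change was 1.26 (SE 0.62, 95% interval −0.04 to 2.57, adjusted p = 0.122), and without DMSO replicate 2 it was 2.21 and past the threshold. The 3 pseudogene entries named after RPS16 held 0.0354% as many counts as the gene. RPLP1, an acidic protein of the stalk, had 769.5, 607, 745 and 721 CPM with the combination, against 114, 812, 765 and 431 CPM with DMSO. RPL28 had 545, 484, 652 and 588 CPM with the combination, against 159, 683, 446 and 401 CPM with DMSO. RPL8 had 2514, 2569, 3169 and 2982 CPM with the combination, against 1071, 3285, 2475 and 2127 CPM with DMSO.

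In all 3 of these genes DMSO replicate 1 was the lowest of the 16 libraries, and DMSO replicate 2 lay above every combination library. Their log2 fold changes were 0.42, 0.43 and 0.33, none past the threshold, with standard errors of 0.37, 0.29 and 0.23 against a median of 0.11 over the members. Without DMSO replicate 2, RPL28 was at 0.76 and RPL8 at 0.57, both past it. RPS21 (0.20) and RPS2 (0.23) had the same order of DMSO libraries, lowest in replicate 1 and highest in replicate 2. Over the 16 libraries, the log2 CPM of RPS16, RPLP1, RPL28, RPL8, RPS21 and RPS2 correlated negatively with the mean of the other members, from −0.62 to −0.07 (Pearson's r, n = 16), while 43 members were over 0.8 and the median was 0.81. GC content of the transcripts was 50.2% in RPS16, 46.6% in RPLP1, 55.3% in RPL28 and 63.1% in RPL8. Among the lower members drawn beside them, it was 42.6% in RPS6, 45.1% in RPS27, 42.8% in RPS29 and 55.8% in RPL13A. The ranges of the higher and the lower members overlapped. Over the 84 members, the log2 fold change with the combination against DMSO correlated with GC content at 0.22 (Pearson's r across genes of the same libraries). The other members above 0 were RPL12L3, RPL3, RPL27A, RPL29 and RPS28, the last 4 at 0.03 to 0.05.

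**Figure D3:**
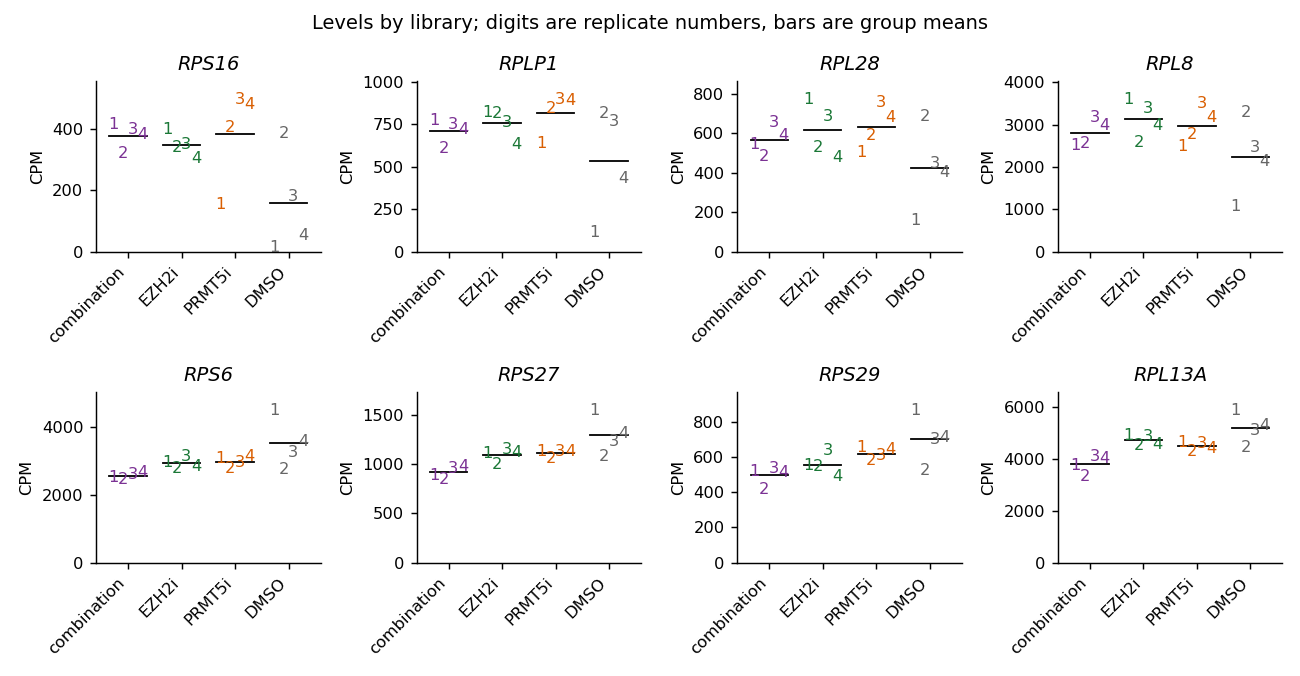
CPM of 8 members by group, with each library drawn as its replicate number and the group mean as a bar. In the upper panels DMSO replicate 1 is the lowest library (13.8 CPM for RPS16), and in the lower panels, RPS6, RPS27, RPS29 and RPL13A, it is the highest, while the combination libraries are close together in both.

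EZH2i alone left nearly all members short of the threshold, with most estimates below 0. Against DMSO, 1 of 84 was lower and none was higher by edgeR's quasi-likelihood test, against 3.49% lower and 4.11% higher among all genes, with a median log2 fold change of −0.19 over the members and −0.01 over all genes. At an unadjusted p under 0.05, 32 members were lower and 0 higher, DESeq2 called 4 lower, and limma voom with library weights called 21 lower and 3 higher. Without DMSO replicate 2, edgeR called 39 lower and 4 higher, without DMSO replicate 4 it called 0, and without both DMSO replicates 1 and 2 it called 19 lower and 1 higher. The shares of all genes called in these other settings are not given here. A change in calls over all genes may be part of these counts. The gene past the threshold was RPL7L1, a paralog of RPL7 found in nucleolar precursors of the large subunit. RPL7L1 had 492, 505, 526 and 507 CPM with EZH2i, against 727, 562, 605 and 653 CPM with DMSO. All EZH2i libraries were below all DMSO libraries, and RPL7L1 fell by 0.33 (SE 0.08, adjusted p = 0.0188), but did not pass when DMSO replicate 4 was left out (−0.32). The lowest estimates were RPS27L at −0.39, RPL26L1 at −0.35, RPL39 at −0.35, RPS3A at −0.34 and RPS29 at −0.33, and the highest RPS16 at 1.14, RPL28 at 0.55, RPLP1 at 0.51, RPL8 at 0.48 and RPS2 at 0.36, none of them past it. RPS6 had 2959.6, 2787, 3118 and 2844 CPM with EZH2i, against 4502, 2755, 3246 and 3565 CPM with DMSO. EZH2i and DMSO overlapped, and the log2 fold change was −0.26 (95% interval −0.50 to −0.03). The log2 fold changes of the members correlated with GC content at 0.38 across genes, and with the GC offset 2 members were lower and 0 higher.

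PRMT5i alone took few members past the threshold, among them the paralogs RPL39L, RPL26L1 and RPL7L1. Against DMSO, 4 of 84 were lower and 1 was higher, where 18.3% of all genes were lower and 17.1% higher, and the median of the members was −0.11. RPL39L, a paralog of RPL39 with its highest known expression in testis (ENSG00000163923.9, chromosome 3, 187120948 to 187180908, minus strand), had 6.08, 5.84, 6.15 and 7.22 CPM with the combination, 12.7, 10.6, 11.03 and 9.85 CPM with EZH2i, 4.98, 4.73, 5.30 and 4.996 CPM with PRMT5i, against 12.3, 11.2, 10.6 and 9.26 CPM with DMSO. The PRMT5i libraries were the lowest, the combination libraries came next, and the EZH2i and DMSO libraries overlapped above both. RPL39L fell by 1.11 with PRMT5i against DMSO (SE 0.11, adjusted p = 6.64e-07), by 0.78 with the combination against DMSO (SE 0.11, adjusted p = 3.37e-05) and by 0.81 with the combination against EZH2i (SE 0.11, adjusted p = 3.11e-05). With EZH2i it was at 0.03 against DMSO (95% interval −0.19 to 0.25). RPL39 itself had 898, 834, 916 and 953 CPM with PRMT5i, against 1333, 734, 855 and 963 CPM with DMSO. The groups overlapped, and its log2 fold change was −0.11 (95% interval −0.41 to 0.19).

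RPL26L1, a paralog of RPL26, had 17.5, 16.6, 16.03 and 16.8 CPM with PRMT5i, against 32.02, 19.2, 21.9 and 21.7 CPM with DMSO. No PRMT5i library reached the DMSO range, whose top value was again replicate 1. RPL26L1 fell by 0.50 (SE 0.12, adjusted p = 0.00386), and its namesake RPL26 was at −0.08 (95% interval −0.33 to 0.17). RPS14 (−0.31, adjusted p = 0.0396) and RPL7L1 (−0.22, adjusted p = 0.0347) were also lower, with groups that overlapped. Each call was lost without DMSO replicate 1, where RPS14 was at −0.20 and RPL7L1 at −0.17. Each was also lost without DMSO replicate 4 or any 1 PRMT5i library, with RPS14 at −0.34 to −0.30 and RPL7L1 at −0.24 to −0.20, so each of those settings left 2 lower members and the same 1 higher.

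The higher member was RPL27A, a large-subunit protein (ENSG00000166441.12, chromosome 11, 8682411 to 8714759, plus strand). RPL27A had 1345, 1362, 1526 and 1509 CPM with the combination, 1455, 1311, 1504 and 1377 CPM with EZH2i, 1616, 1570.5, 1802 and 1779 CPM with PRMT5i, against 1329, 1349, 1452 and 1426 CPM with DMSO. All 4 PRMT5i libraries were above every DMSO, EZH2i and combination library. RPL27A rose by 0.28 with PRMT5i against DMSO (SE 0.08, adjusted p = 0.00883), and with the combination it was at 0.05 against DMSO (95% interval −0.12 to 0.21). Without DMSO replicate 2, 24 members were lower with PRMT5i and 7 higher, and without both DMSO replicates 1 and 2, 18 were lower and 3 higher. Shares of all genes called without these libraries are not given here, and calls over all genes may have changed as well. RPS6 had 3076, 2785, 2946 and 3121 CPM with PRMT5i, within the DMSO range, at −0.24 against DMSO (95% interval −0.47 to −0.00). RPL17 (−0.29) and RPL6 (−0.26) were next lowest, and RPS16 (1.28), RPLP1 (0.62), RPL28 (0.58), RPL8 (0.41) and RPL12L3 (0.40) were highest, none past the threshold.

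**Figure D4:**
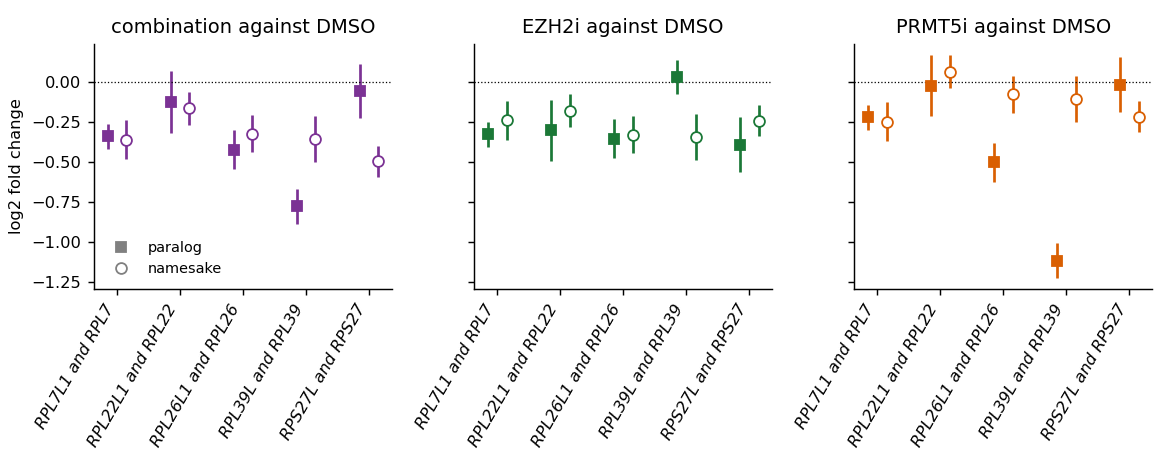
Log2 fold change against DMSO of 5 paralogs (squares) and the members they are named after (open circles), with bars of 1 standard error, in a panel each for the combination, EZH2i and PRMT5i. RPL39L lies at −0.78, 0.03 and −1.11 in the 3 panels, and RPL39 at −0.36, −0.35 and −0.11.

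The remaining paralogs showed smaller or less certain differences. RPL22L1, a paralog of RPL22 that takes part in splicing and blood development, had 185, 196, 150.0 and 154 CPM with the combination, against 259, 114, 189 and 186 CPM with DMSO. DMSO replicates 1 and 2 were the highest and the lowest of these 8 libraries, and the log2 fold change was −0.13 (95% interval −0.53 to 0.28), beside −0.16 in RPL22. RPS27L, a paralog of RPS27 that p53 induces, had 90.4, 81.3, 77.8 and 82.1 CPM with the combination, 60.9, 73.9, 57.4 and 70.8 CPM with EZH2i, against 121, 53.4, 80.9 and 89.9 CPM with DMSO. All 4 combination libraries were above all 4 EZH2i libraries, and both groups lay within the DMSO range. The log2 fold change of RPS27L was 0.33 with the combination against EZH2i (95% interval −0.03 to 0.70, adjusted p = 0.164) and −0.06 against DMSO, where RPS27 was lower. RPL7 was at −0.36 with the combination against DMSO and RPL7L1 at −0.34, and RPL26 was at −0.32 and RPL26L1 at −0.42, all 4 past the threshold. The RPL26 call was lost without DMSO replicate 1 (−0.20), DMSO replicate 4 or any 1 combination library, and the RPL7 call without DMSO replicate 1 (−0.21) or any of combination replicates 1, 2 and 3. RPL10 fell by 0.38 (adjusted p = 0.0176) but did not pass when combination replicate 1 (−0.33) or 2 (−0.35) was left out, and it shares 34.2% of its exon bases with DNASE1L1 on the opposite strand. RPL3L, a muscle paralog of RPL3, and RPL10L, a testis paralog of RPL10, were not tested. RPL10L had 0 counts in every library, and RPL3L at most 5 in any.

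The 3 entries annotated as processed pseudogenes despite their names were RPS10L, RPL12L3 and a second RPL41 entry (ENSG00000279483). RPS10L had too few counts to be tested, and RPL12L3 held 5.40 to 15.1 counts per library, with a log2 fold change of 0.58 (SE 0.37) with the combination against DMSO. The second RPL41 entry fell by 0.37 (adjusted p = 0.00290), and RPL41 on chromosome 12 was at −0.21 (adjusted p = 0.0869). Reads that match both RPL41 entries were divided between them by estimation, so their separate values are uncertain. More widely, 75 of the 84 tested members held values that were not whole numbers in at least 1 library, and 933 pseudogene entries carry the names of 76 members. Adding the counts of those entries to their members left 49 lower with the combination against DMSO, 48 of them shared with the 48 above.

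Against PRMT5i alone, no single member passed the threshold with the combination, and most estimates were slightly below 0. By edgeR's quasi-likelihood test 0 of 84 were past the threshold, where 1.24% of all genes were lower and 2.91% higher. At an unadjusted p under 0.05, 27 members were lower and 1 higher, DESeq2 called 3 lower, limma voom 29 lower and 1 higher, and a fit of these 2 groups alone 38 lower and 1 higher. The shares of all genes in these other settings are not given here. The median log2 fold change was −0.19 over the members and 0.00 over all genes, and 81 of the 84 estimates were below 0. In 44 members (52.4%) all 4 combination libraries were below all 4 PRMT5i libraries, against 8.79% of all genes. Neither group holds DMSO libraries, which enter the fit through the shared scaling and spread, yet 4 were lower without DMSO replicate 1, 1 without DMSO replicate 2, and 25 were lower and 1 higher without both.

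RPS29 was lowest in that comparison, with 519, 414, 535 and 514 CPM with the combination, against 652, 577, 606 and 642 CPM with PRMT5i. Each combination library was below each PRMT5i library, and the log2 fold change was −0.32 (95% interval −0.59 to −0.05, adjusted p = 0.212). RPL36, a large-subunit protein, had 650.1, 502, 637 and 602 CPM with the combination, against 778, 753, 700.4 and 684 CPM with PRMT5i. These did not overlap, at −0.29 (95% interval −0.51 to −0.06, adjusted p = 0.172). RPL39L had the highest estimate, 0.34 (95% interval 0.11 to 0.57, adjusted p = 0.102), with all combination libraries above all PRMT5i libraries. Next lowest were RPS27 (−0.28), RPS3A (−0.28) and RPL13 (−0.28), and next highest RPL12L3 (0.19), RPL26L1 (0.08), RPS16 (−0.02) and RPS27L (−0.04), none past the threshold. RPS10, the PRMT5 substrate, was at −0.26 with the combination against PRMT5i and −0.17 with PRMT5i against DMSO (95% interval −0.37 to 0.02).

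Against EZH2i alone, 4 of 84 members were lower with the combination and none was higher, where 14.6% of all genes were lower and 13.4% higher, and the median of the members was −0.12. At an unadjusted p under 0.05, 12 were lower and 0 higher by edgeR, DESeq2 called 8 lower and 0 higher, and limma voom 17 lower and 1 higher. Shares of all genes for these other counts are not given here. Among the 4 were RPL39L, RPL13A and RPS15. RPL13A had 3741, 3315, 4059 and 3999 CPM with the combination, against 4876, 4488, 4859 and 4551 CPM with EZH2i. RPS15, a small-subunit protein mutated in some chronic lymphocytic leukaemias, had 459.8, 361, 505 and 453 CPM with the combination, against 629.6, 555, 575 and 474 CPM with EZH2i. The groups did not overlap for RPL13A and did for RPS15, in which combination replicate 3 was above EZH2i replicate 4.

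The fold changes on the log2 scale were −0.31 for RPL13A (SE 0.09, adjusted p = 0.0137) and −0.33 for RPS15 (SE 0.10, adjusted p = 0.0229). Both calls were lost with an offset for GC content and without combination replicate 2, where RPL39L was the 1 member still called. The RPS15 call was also lost without EZH2i replicate 1 or 3. RPL10 was next lowest (−0.30, adjusted p = 0.0674), and the highest estimates were RPS27L (0.33), RPL12L3 (0.26), RPL22L1 (0.18), RPS16 (0.12) and RPS18 (0.07), none past the threshold. The count was 15 lower without DMSO replicate 1, 9 lower and 1 higher without DMSO replicate 2, 7 lower without PRMT5i replicate 2, and 25 lower and 1 higher without both DMSO replicates 1 and 2. Shares of all genes called without these libraries are not given here, and calls over all genes may have changed as well.

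The interaction asks whether EZH2i had another effect beside PRMT5i than beside DMSO. By edgeR's quasi-likelihood test 0 of 84 members passed, against 0.29% of all genes, and the smallest adjusted p was 0.480. At an unadjusted p under 0.05, 3 were below 0 and 1 above, and DESeq2 and limma voom also called 0. Leaving out any 1 library gave 0 as well. The median was −0.01, and 80 of 84 intervals at 95% held 0, and reached 0.316 on the log2 scale to each side of the estimate at the median. Differences in the effect below about that size could therefore not be told from 0. RPL26L1 had the smallest p, at 0.43 (95% interval 0.07 to 0.80, adjusted p = 0.480), and RPL27A was at −0.26 (95% interval −0.49 to −0.03). The lowest estimates, RPS16 at −1.16 and RPLP1 at −0.71, belonged to members that varied most among the DMSO libraries, and their intervals held 0.

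The difference made by EZH2i can be read in 2 comparisons that share no library, the combination against PRMT5i and EZH2i against DMSO. The median of the members was −0.19 in both, and 69 of 84 were below 0 in both, against 5320 of all 16555 genes tested. Across the members the fold changes of these comparisons correlated at 0.34 (Pearson's r, n = 84 genes of the same libraries), the same as over all genes. The difference made by PRMT5i, in the combination against EZH2i and PRMT5i against DMSO, had medians of −0.12 and −0.11. Of the members, 55 of 84 were below 0 in both, against 6304 of all 16555 genes tested. The correlation was r = 0.54 over the members, against 0.75 over all genes.

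**Figure D5:**
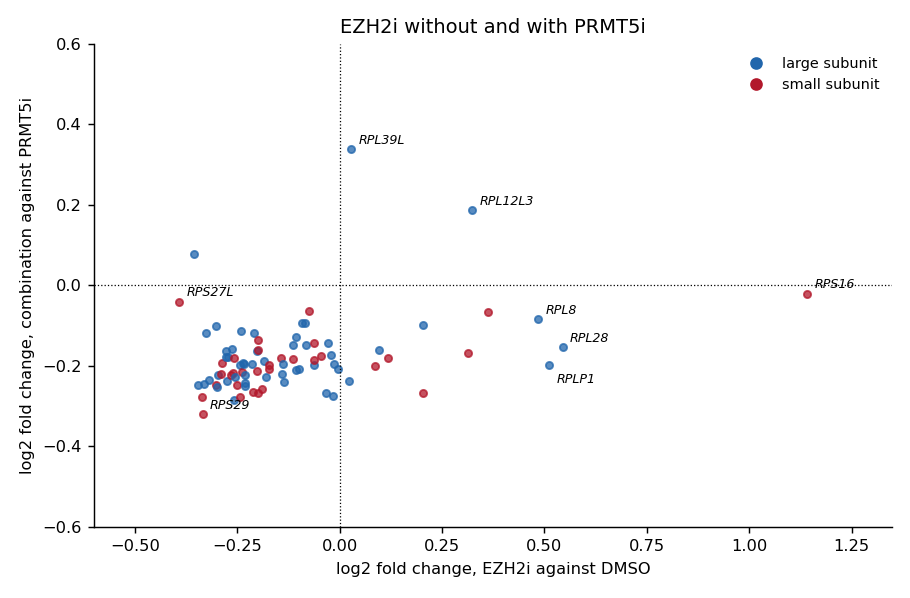
Log2 fold change of the 84 tested members in EZH2i against DMSO (horizontal axis) and in the combination against PRMT5i (vertical axis), 2 comparisons without a shared library, with large-subunit genes in blue and small-subunit genes in red. Most points lie left of and below 0, at medians of −0.19 on both axes, while RPS16 lies at 1.14 and −0.02 and RPL39L at 0.03 and 0.34.

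Counts for other genes of translation and ribosome assembly are set against the 18.5% of all genes that were lower and the 17.6% that were higher with the combination against DMSO, and no list was tested as a set. Among ribosomal protein genes whose names fall outside the rule, FAU, the precursor of RPS30, fell by 0.29 with the combination against DMSO (adjusted p = 0.0143), while RPL36AL (−0.11) did not pass. Of 17 further genes with TOP mRNAs, 7 were lower (median −0.22): the elongation factor genes EEF1D (−0.61), EEF1B2 (−0.50) and EEF1A1 (−0.33), with EIF4B, NPM1, EIF3F and NACA. Initiation factor genes had 6 of 24 lower and 1 higher, with EIF6 (−0.56), which keeps the subunits apart, and EIF2S2 (−0.61) among the lower. Assembly factors of the large subunit had 9 of 24 lower and 1 higher, WDR12 (−0.41) and GNL3 (−0.56) below and the methyltransferase gene NOP2 (0.52) above. Those of the small subunit had 9 of 27 lower and 2 higher, with EMG1 (−0.71), NOP56 (−0.50) and NOP58 (−0.50) lower.

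The lists that follow differed in their shares of called genes. RNA polymerase I genes had 1 of 15 lower, POLR1E (−0.56), and 1 higher, TAF1D (0.38). Genes of the mTOR and MYC control of TOP mRNAs had 2 of 13 lower, EIF4EBP1 (−1.18), the translation repressor that mTOR inactivates, and RPS6KB1 (−0.47), the kinase of RPS6, and 2 higher, AKT1S1 (0.81) and TSC1 (0.42), shares near those of all genes. PRMT5 partners and methyltransferases of ribosomal proteins had 5 of 10 lower (median −0.25), PRMT1 most (−0.61) and the PRMT5 cofactor gene WDR77 at −0.32, and PRMT5 itself did not pass (0.09). Chaperones and importers of ribosomal proteins had 4 of 14 lower and 1 higher, with IPO5 at −0.58, and genes of ribosome quality control and collisions 4 of 14 lower, with ZNF598 at −0.64. The p53 axis had 3 of 10 higher, ZMAT3 (1.24), BTG2 (1.11) and SESN1 (0.75), and 1 lower, BBC3 (−0.74), while CDKN1A was at 0.03. Of the mitochondrially encoded protein genes, 11 of 13 were higher (median 0.88), against 17.6% of all genes. The counts on all mitochondrially encoded genes together made up 0.632% ± 0.118 with the combination and 0.673% ± 0.697 with DMSO (SD, n = 4 each), with DMSO replicate 1 apart at 1.70%. With PRMT5i alone, 3 of the 17 TOP genes, 7 of the 24 assembly factors of the large subunit and 11 of the 27 of the small subunit were lower against DMSO, where 18.3% of all genes were, so the TOP genes were at the share of all genes. With EZH2i alone, 2 of the 24 assembly factors of the large subunit and 1 of the 27 of the small subunit were lower, against 3.49% of all genes.

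The genes outside the family whose log2 CPM followed the mean of the members most closely over the 16 libraries were EIF3L (r = 0.93) and GNB2L1 (r = 0.93), the older symbol of RACK1, whose protein sits on the head of the small subunit. EEF1A1P5 followed at 0.91, PGAM1 at 0.90 and PAPSS1 at 0.89, out of 16381 candidates, with n = 16 libraries. EEF1A1P5 is annotated as a processed pseudogene, so reads that also match EEF1A1 could be divided between them. GNB2L1 averaged 2079 CPM with the combination and 2637 CPM with DMSO, a log2 fold change of −0.34 (adjusted p = 0.0101), and EIF3L 561 and 649 CPM, a log2 fold change of −0.21 (adjusted p = 0.0607).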

How the data were processed

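Paired-end RNA-seq of 16 libraries was analysed. Per the submitters' processing notes, the authors used STAR 2.5.3, RSEM and the build GRCh38.p7; the annotation, RSEM version, library kit, RNA selection and strand setting are not given in the sources used here. The deposited table holds the authors' expected counts per gene, which need not be whole and were rounded here. Members were the symbols of the rule, and the members and the gene lists were chosen with earlier results of these data known. Genes passing edgeR's filterByExpr (16555) were scaled by TMM and tested with edgeR 4.0.16 by its quasi-likelihood test on 4 group means, with Benjamini-Hochberg adjustment over all of them and a threshold of 0.05 (R 4.3.3). CPM use TMM-scaled library sizes, and likeness was Pearson's r of log2 CPM with the mean of the members. Alternatives were DESeq2 1.42.0, limma 3.58.1 voom, other scalings, no filter, a replicate block, a GC offset, pseudogene counts added to members, and leaving out each library. Named were the 5 lowest and 5 highest members of each comparison, paralogs and the members they are named after, 15 members with roles outside the ribosome or in disease, up to 3 genes per list by smallest p, and the 5 genes most like the mean of the members; other names were chosen after their values were seen. Positions, gene types and exon overlap came from GENCODE release 29 (GRCh38), and start sequences from RefSeq (GRCh38.p14). Depth was 31.1 to 52.9, in units of 1e+06 expected counts per library. A few genes and their values are not reported here.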

Additional observations from a re-analysis of the deposited data

Results flagged for a closer look

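For the 44 tested members named by rule and 3 measures of the libraries, not for the other members, each group of 4 libraries was checked for a highest or lowest library far from the other 3. Of these 188 groups, 7 (3.72%) had one, where chance sets apart about 1 in 20 groups. Combination replicate 2 was apart from the other combination libraries for RPS7 (723 CPM) and RPSA (1431 CPM), and EZH2i replicate 4 from the other EZH2i libraries for RPS19 (1399 CPM) and RPSA (1411 CPM). EZH2i replicate 2 was apart for RPL3 (2716 CPM), and PRMT5i replicate 2 for RPL26 (1359 CPM) and RPS27 (1058 CPM). All 7 were the lowest of their group. In none of the 7 was a DMSO library the one apart. A group spread toward both ends has no single library apart, so DMSO libraries can differ widely without being flagged. Those of RPS16 differed by up to 4.80 on the log2 scale and were not flagged. No member passed a test of a difference in the effect of EZH2i with and without PRMT5i.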

How the results depend on the processing

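No result that was called changed sign, and 124 of 173 counts of members past the threshold under other settings stayed within 1.5 times the first value, while 49 did not. Totals of members past the threshold, higher and lower together, follow. For EZH2i against DMSO (1) they were 4 with DESeq2, 24 with limma voom, 2 with the GC offset, 9 with the GC offset and replicate block, 0 without the filter, 0 with only the 2 groups, and 20 without both DMSO replicates 1 and 2, an alternative chosen after seeing the data. For PRMT5i against DMSO (5) they were, in the same order, 8, 30, 11, 18, 3, 3 and 21. For the combination against DMSO (48) they were 27 with total counts and 19 with only the 2 groups. For the combination against PRMT5i (0) they were 3 with DESeq2, 30 with voom, 3 with the GC offset, 10 with the GC offset and block, 1 with total counts, 39 with only the 2 groups, 1 with replicates 1 and 2 against 3 and 4 as a term, and 26 without both DMSO replicates. For the combination against EZH2i (4) they were 8 with DESeq2, 18 with voom, 11 with the GC offset and block, 7 with total counts, 1 without the filter, 11 with only the 2 groups and 26 without both DMSO replicates. Leaving out 1 library gave 0 to 43 for EZH2i against DMSO, 3 to 31 for PRMT5i against DMSO, 30 to 64 for the combination against DMSO, 0 to 4 for the combination against PRMT5i, 1 to 15 for the combination against EZH2i and 0 for the interaction. The causes were not tested. Except for total counts in the combination against DMSO, the shares of all genes called in the other settings are not given here. A rise or fall in these counts may therefore be shared by all genes. The median log2 fold change of the members stayed below 0 in all settings run for these 5 comparisons other than the interaction, within −0.26 to −0.08, −0.17 to −0.02, −0.38 to −0.18, −0.23 to −0.12 and −0.16 to −0.09 in that order. The interaction median lay between −0.12 without DMSO replicate 1 and 0.06 without DMSO replicate 2, on both sides of 0. With total counts, the split of all genes for the combination against DMSO was 3897 higher and 2021 lower, against 2920 and 3070 with TMM. A replicate block gave 52 for the combination against DMSO, 1 for the combination against PRMT5i and 9 for the combination against EZH2i. The numbers were not shown to pair the libraries: deviations of the 24 same-numbered pairs correlated at −0.27 to 0.24, 9 of them over 0.1, and 5 of 16 libraries correlated best with their own number.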
